A study of Homo sapiens with 4 samples.

Results

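The eIF2 kinases, the regulatory subunits of the eIF2 phosphatase and the eIF2B exchange factor set how much translation initiation factor eIF2 is active in a cell. The 10 genes described here are EIF2AK1, EIF2AK2, EIF2AK3, EIF2AK4, EIF2S1, PPP1R15A, PPP1R15B, EIF2B3, EIF2B4 and EIF2B5. They were taken by gene symbol, with no cut on their values, out of 24241 genes measured under a symbol. Earlier results of these data were known when the 10 were chosen. Each of the 10 was measured by 1 probe set. No filter on low values was applied, so all 10 entered every comparison.

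RNA of MOLM-14, an established cell line from a human acute myeloid leukaemia, was measured on 4 Affymetrix whole-transcript arrays. All cells were given 30 µM GSK621, which activates AMPK, the kinase that senses low cellular energy, for 6 h. On 2 arrays the cells had no further treatment, and on the other 2 they had first been given rapamycin, an inhibitor of the kinase complex mTORC1, at 10 nM for 12 h. The labels call the cultures biological replicates of this single line, so n = 2 per group, and cells without GSK621 or with rapamycin alone were not analysed here. The comparison therefore asks how transcript levels under AMPK activation differed with mTORC1 inhibited beforehand, and an action of rapamycin alone cannot be told apart from an altered response to GSK621.

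Phosphorylation of the alpha subunit of eIF2, the product of EIF2S1, turns eIF2 from a substrate of eIF2B into its inhibitor. Delivery of the initiator tRNA to ribosomes then drops for most mRNAs, while mRNAs with particular upstream reading frames, such as that of the transcription factor ATF4, are translated better. Each of 4 kinases senses another stress, and PPP1R15A and PPP1R15B guide protein phosphatase 1 (PP1) to remove the phosphate. This integrated stress response acts on proteins, and neither phosphorylation nor translation was measured on these arrays. In bulk RNA, fewer cells with a transcript and less of it per cell cannot be told apart.

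Of the 12 measured markers of myeloid leukaemia cells, 11 lay above the median level of all genes, among them FLT3, LYZ, CD68 and PTPRC. The same was true of 3 of 7 lymphoid, 2 of 7 erythroid and megakaryocyte and 2 of 6 epithelial and liver markers. The median log2 difference between the groups over all genes was 0.00. No detection calls were used, and all 10 genes of the eIF2 cycle lay at or above percentile 78.5 of the mean level of all genes.

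None of the 10 genes passed the test, and the largest difference, that of PPP1R15A, was 1.34-fold. The stress sensor kinase gene EIF2AK3, the phosphatase subunit gene PPP1R15A, the kinase gene EIF2AK1 and EIF2S1 had lower values on both arrays after rapamycin and GSK621 than on both arrays after GSK621 alone. EIF2AK4, EIF2B3 and EIF2B4 had higher values on both. EIF2AK2, PPP1R15B and EIF2B5 had overlapping arrays. With limma, 0 of 10 genes and 0 of all 24241 genes (0%) reached a Benjamini-Hochberg adjusted p under 0.05. The lowest adjusted p among the 10 was 0.554, for EIF2AK3.

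At an unadjusted p under 0.05 there were 2 of the 10 genes, EIF2AK3 and PPP1R15A, both lower, where 8.51% of all genes passed in either direction (10.4% of genes above the median level). As lower genes 2 of the 10 met this rule against 4.2% of all genes, and as higher genes 0 of the 10 against 4.31%. The count of 2 came to 0 without replicate 1 of GSK621, to 0 without replicate 1 of rapamycin then GSK621, and to 1, PPP1R15A, without replicate 2 of rapamycin then GSK621. For 7 of the 10 genes the groups had no overlap between their arrays, against 39.4% of all genes and 47.1% of genes above the median level. Of these, 4 were lower (18.9% of all genes) and 3 higher (20.5%). The median log2 difference of the 10 genes was 0.00, as over all genes, and their median size without sign was 0.15, against 0.11 over all genes.

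**Figure D1:**
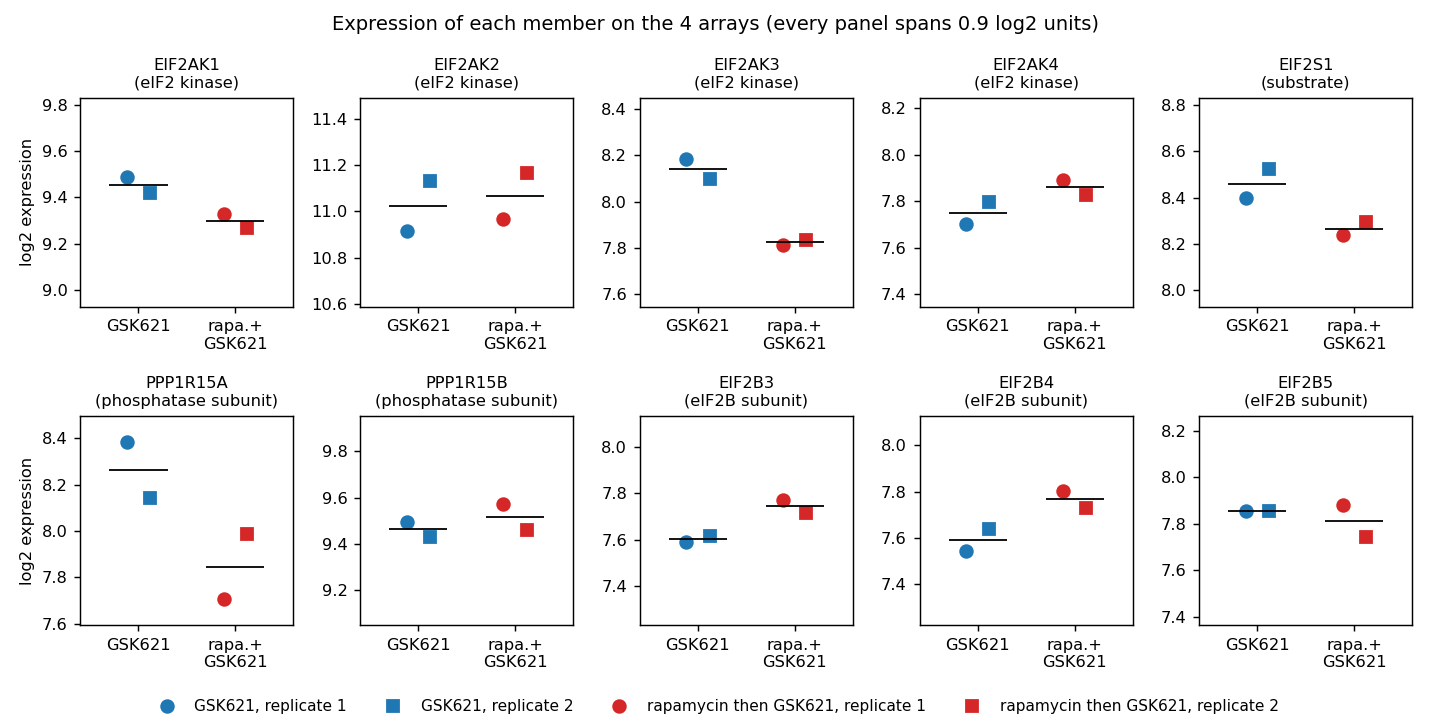
Log2 expression of the 10 genes on each array, with the treatment on the horizontal axis, blue for GSK621 alone, red for rapamycin then GSK621, circles for replicate 1, squares for replicate 2 and a line at each group mean (n = 2). EIF2AK3 and PPP1R15A show the widest separation between group means, and EIF2AK2 differs more between replicates than between treatments.

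EIF2AK3 encodes PERK, the kinase of the endoplasmic reticulum membrane that responds to unfolded proteins. Its log2 level was 8.18 and 8.10 in replicates 1 and 2 of GSK621 alone. After rapamycin and GSK621 it was 7.81 and 7.84. Both arrays after rapamycin were thus below both others by at least 0.26, and the replicates lay within 0.09 and 0.02 of each other. The log2 difference was −0.32 ± 0.09 (SE), with a 95% interval of −0.56 to −0.08, which is 1.25-fold lower after rapamycin (limma adjusted p = 0.554). Among all genes this difference lay at percentile 4.10, where percentile 0 would be the most negative.

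The promoter of EIF2AK3 is shown because this gene had the smallest p of the 10. The window, from RefSeq (GRCh38.p14, chr2:88627435-88627714, minus strand), runs from 250 bases before to 30 bases after the annotated start, with matches to the CCAAT box on either strand in capitals.
EIF2AK3: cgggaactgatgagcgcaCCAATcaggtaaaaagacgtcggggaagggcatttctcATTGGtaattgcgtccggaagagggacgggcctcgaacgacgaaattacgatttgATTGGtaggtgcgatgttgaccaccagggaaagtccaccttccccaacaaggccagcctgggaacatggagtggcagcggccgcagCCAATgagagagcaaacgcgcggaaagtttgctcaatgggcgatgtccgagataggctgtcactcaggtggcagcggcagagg
The window held 4 matches to CCAAT or its reverse complement ATTGG. At least 1 match stood in 33.6% of the 35116 RefSeq windows of this length, and 4 or more stood in 0.96%. Of the 9 genes of the eIF2 cycle with a window, 5 had at least 1 match, namely EIF2AK2, EIF2AK3, EIF2B3, EIF2B4 and PPP1R15B. The endoplasmic reticulum stress response element is CCAAT and CCACG parted by 9 bases. It had no match on either strand in the EIF2AK3 window and was found in 0.0769% of all windows. It includes the letters of a CCAAT box, and these matches are letter matches in a window, not measured binding.

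EIF2AK1 encodes HRI, the kinase known for responding to low heme in red cell precursors and to mitochondrial stress. Its log2 level was 9.49 and 9.42 after GSK621 alone and 9.33 and 9.27 after rapamycin and GSK621. The groups were separated by 0.09, slightly more than the replicates of GSK621 alone differed (0.07). This gave a log2 difference of −0.16 ± 0.10 (SE), with a 95% interval of −0.40 to 0.08 (limma adjusted p = 0.707).

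EIF2AK4 encodes GCN2, the kinase that binds uncharged tRNA and responds to a shortage of amino acids. It was the kinase gene with higher values after rapamycin, at 7.89 and 7.83 against 7.70 and 7.80. The gap between the groups was 0.03, smaller than the gap of 0.09 between the replicates of GSK621 alone. The log2 difference was 0.11 ± 0.10 (SE), with a 95% interval of −0.13 to 0.36 (limma adjusted p = 0.792), and it came to 0.06 without replicate 1 of GSK621.

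EIF2AK2 encodes PKR, the kinase activated by double-stranded RNA and itself an interferon-induced gene. On the arrays its log2 level was 10.91 and 11.13 after GSK621 alone and 10.97 and 11.16 after rapamycin and GSK621, with overlapping groups. The treatment difference was 0.04 ± 0.13 (SE), with a 95% interval of −0.28 to 0.36 (limma adjusted p = 0.952). Without replicate 1 of GSK621 it was −0.07, and without replicate 2 of rapamycin then GSK621 it was −0.06. Replicate 2 was above replicate 1 by 0.22 in cells given GSK621 alone and by 0.20 in cells given rapamycin first. For PPP1R15B and EIF2B5 both replicate 2 arrays were below both replicate 1 arrays, as for 4176 of all 24241 genes. EIF2AK2 was the gene among the 10 with both replicate 2 arrays above both replicate 1 arrays, a pattern met by 15.2% of all genes.

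The same array pattern was present in 28 of 28 measured interferon-stimulated genes, with a median of 0.29 for replicate 2 minus replicate 1. For all 28 the arrays of the treatment groups overlapped, which follows from that pattern because each group holds 1 array of each replicate number. The median treatment difference of the 28 was −0.04, and it changed sign with the array left out. It was −0.20 without replicate 1 of GSK621 and −0.18 without replicate 2 of rapamycin then GSK621. Without the other array of each group it was 0.089 and 0.080. Leaving out 1 array gives the groups unequal replicate numbers, so the difference between replicates enters these values. Of the 28 genes, IFIT2, an inhibitor of viral translation, had a treatment difference of −0.24 ± 0.15 (SE). OASL had −0.22 ± 0.16 and HERC6 −0.23 ± 0.17. With 1 array left out, IFIT2 ran from −0.43 (without replicate 2 of rapamycin then GSK621) to −0.061 (without replicate 1 of that group). OASL ran from −0.41 to −0.037 and HERC6 from −0.42 to −0.044, the first value without replicate 1 and the second without replicate 2 of GSK621. The labels name no batch, date or infection, and what set the replicates apart was not tested.

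The promoter of EIF2AK2 is shown for its match to the interferon-stimulated response element, GAAA and GAAA parted by 2 bases, in capitals (RefSeq, GRCh38.p14, chr2:37156951-37157230, minus strand, same window).
EIF2AK2: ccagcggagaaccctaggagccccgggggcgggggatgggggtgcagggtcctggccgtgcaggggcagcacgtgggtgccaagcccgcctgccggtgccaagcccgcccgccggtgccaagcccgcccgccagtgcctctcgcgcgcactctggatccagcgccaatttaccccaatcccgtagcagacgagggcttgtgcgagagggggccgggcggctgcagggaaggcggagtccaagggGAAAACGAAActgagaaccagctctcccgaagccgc
The match spans the annotated start, from base −6 to base 4. On either strand this motif stood in 3.39% of all 35116 windows, in windows of 16 of the 22 interferon-stimulated genes that had one, and in that of 1 of the 9 genes of the eIF2 cycle that had one, EIF2AK2.

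**Figure D2:**
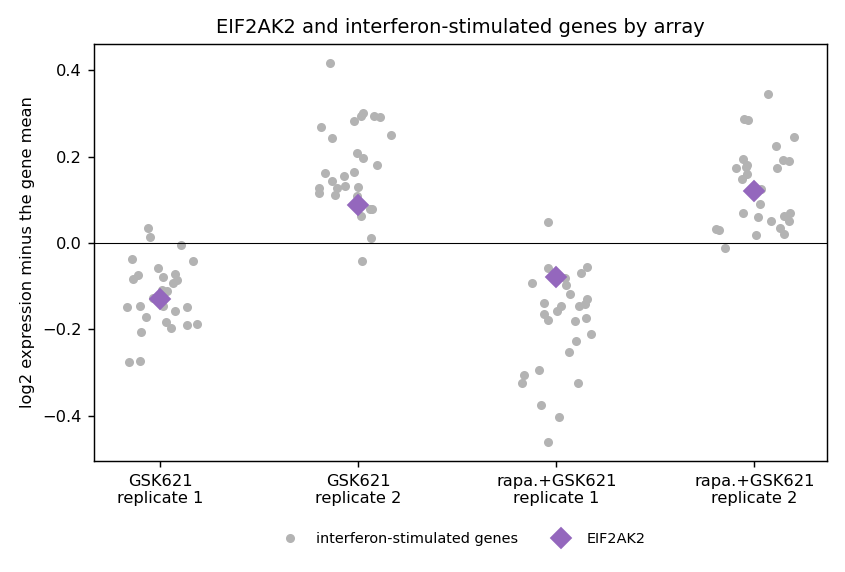
Log2 expression minus the mean of the gene over the 4 arrays, for EIF2AK2 (purple) and 28 interferon-stimulated genes (grey, 1 point per gene and array). The points of both replicate 2 arrays sit mostly above 0 and those of both replicate 1 arrays mostly below, whichever the treatment.

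EIF2S1 encodes the alpha subunit of eIF2, which carries the serine that all 4 kinases phosphorylate. The arrays gave a log2 level of 8.40 and 8.52 after GSK621 alone and 8.24 and 8.29 after rapamycin and GSK621. Both arrays after rapamycin were lower, with a gap of 0.10 between the groups against 0.13 between the replicates of GSK621 alone. Between the groups the log2 difference was −0.19 ± 0.10 (SE), with a 95% interval of −0.45 to 0.06 (limma adjusted p = 0.667).

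The other subunits did not share this direction. EIF2S3, the gamma subunit that binds GTP and the initiator tRNA, was at 11.68 and 11.74 after GSK621 alone and at 11.99 and 11.94 after rapamycin and GSK621. Its log2 difference was 0.25 ± 0.09 (SE; limma adjusted p = 0.584). EIF2S2, the beta subunit, had a log2 difference of 0.11 ± 0.10, which ranged from 0.047 to 0.17 when either array of rapamycin then GSK621 was left out. Both had arrays that did not overlap, on the higher side, and the difference between these values and that of EIF2S1 was not tested.

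PPP1R15A encodes GADD34, the stress-induced subunit that directs PP1 to phosphorylated eIF2 and so closes the feedback loop of the response. It had the widest range of the 10 genes over the 4 arrays, 0.68. On the arrays its log2 level was 8.38 and 8.14 after GSK621 alone and 7.70 and 7.99 after rapamycin and GSK621. The groups did not overlap, with a gap of 0.15, while the replicates lay 0.24 and 0.28 apart. This gave a log2 difference of −0.42 ± 0.15 (SE), with a 95% interval of −0.78 to −0.05, which is 1.34-fold lower after rapamycin (limma adjusted p = 0.565). It lay at percentile 1.97 of all differences, and it came to −0.28 without replicate 1 of rapamycin then GSK621 and to −0.56 without replicate 2 of that group.

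The promoter of PPP1R15A is shown because this gene had the largest difference of the 10, with the cAMP response element TGACGTCA, a site that factors of the ATF and CREB family can bind, in capitals (RefSeq, GRCh38.p14, chr19:48872171-48872450, plus strand, same window).
PPP1R15A: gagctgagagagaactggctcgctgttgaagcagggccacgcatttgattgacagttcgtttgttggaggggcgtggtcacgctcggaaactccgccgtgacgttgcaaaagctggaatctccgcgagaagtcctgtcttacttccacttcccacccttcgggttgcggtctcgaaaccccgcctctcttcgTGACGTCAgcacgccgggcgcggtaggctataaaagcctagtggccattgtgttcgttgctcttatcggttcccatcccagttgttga
The match lies from base −58 to base −51 before the annotated start and reads the same on both strands. Of the 9 genes of the eIF2 cycle with a window, PPP1R15A was the 1 with a match, and 1.85% of all windows had one. The C/EBP-ATF element was searched as TGATG and AAT parted by 1 base on both strands. It had no match in the windows of these 9 genes and was found in 0.951% of all windows. The search also found no match in the 23 listed genes downstream of phosphorylated eIF2 that had a window. Its absence therefore does not set the 9 genes apart.

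PPP1R15B encodes CReP, the subunit that serves the phosphatase without stress. Its log2 level was 9.50 and 9.43 after GSK621 alone and 9.57 and 9.46 after rapamycin and GSK621, so the groups overlapped. The log2 difference was 0.05 ± 0.10 (SE), with a 95% interval of −0.20 to 0.30 (limma adjusted p = 0.916), but −0.0035 when replicate 1 of rapamycin then GSK621 was left out. Its interval overlaps that of PPP1R15A, and the difference between the 2 genes was not tested.

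The genes of the catalytic subunits that both proteins recruit had differences of either sign, and the contrast between them was not tested. PPP1CB had log2 levels of 10.22 and 10.20 after GSK621 alone and 9.94 and 9.90 after rapamycin and GSK621. Its log2 difference was −0.29 ± 0.09 (SE; limma adjusted p = 0.562), with replicates that lay close together in both groups. PPP1CA had 0.10 ± 0.10, with higher values on both arrays after rapamycin (0.058 without replicate 1 of rapamycin then GSK621). PPP1CC had 0.01 ± 0.10 with overlapping arrays, and its sign changed, at −0.030, when replicate 2 of GSK621 was left out.

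The 3 eIF2B subunit genes among the 10 encode parts of the factor that reloads eIF2 with GTP. Higher values on both arrays after rapamycin were seen for 2 of the 3, against 20.5% of all genes. EIF2B4, the delta subunit of the regulatory core, was at 7.54 and 7.64 after GSK621 alone and at 7.80 and 7.73 after rapamycin and GSK621. Both arrays after rapamycin were higher, by a gap of 0.09, about that between the replicates of GSK621 alone (0.09). The treatment difference on the log2 scale was 0.17 ± 0.10 (SE), with a 95% interval of −0.07 to 0.42 (limma adjusted p = 0.685).

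EIF2B3, the gamma subunit, was at 7.59 and 7.61 after GSK621 alone and at 7.77 and 7.71 after rapamycin and GSK621. Both arrays after rapamycin were higher by at least 0.10, more than the 0.02 and 0.06 between replicates. This gave a log2 difference of 0.14 ± 0.09 (SE), with a 95% interval of −0.09 to 0.37 (limma adjusted p = 0.726).

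EIF2B5, the epsilon subunit with the catalytic exchange activity, was at 7.86 and 7.85 after GSK621 alone and at 7.88 and 7.75 after rapamycin and GSK621. The arrays of the groups overlapped. The log2 difference was −0.04 ± 0.10 (SE), with a 95% interval of −0.29 to 0.21 (limma adjusted p = 0.936), but its sign changed, at 0.03, when replicate 2 of rapamycin then GSK621 was left out. The remaining subunits had arrays that did not overlap, with log2 differences of 0.09 ± 0.10 for EIF2B1, the alpha subunit, and −0.11 ± 0.09 for EIF2B2, the beta subunit. With 1 array left out, EIF2B1 came to as little as 0.043 (without replicate 2 of GSK621) and EIF2B2 to −0.061 (without replicate 1 of rapamycin then GSK621).

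**Figure D3:**
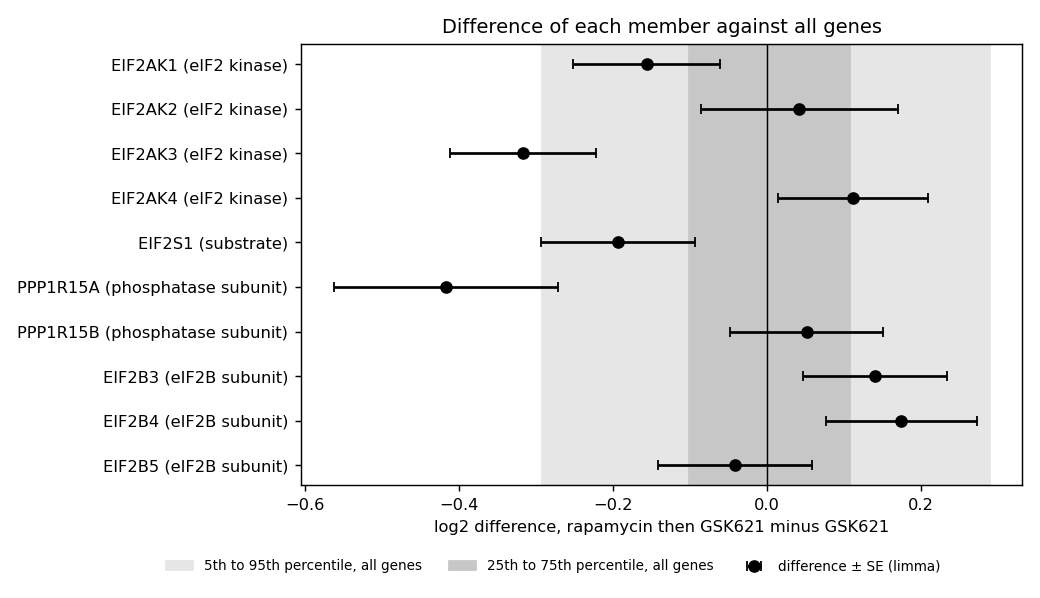
Log2 difference, rapamycin then GSK621 minus GSK621, of each of the 10 genes, with the standard error from limma (n = 2 per group) as bars. The light and dark bands hold the central range of all 24241 genes from percentile 5 to 95 (−0.29 to 0.29) and from 25 to 75 (−0.10 to 0.11), and EIF2AK3 and PPP1R15A lie left of the light band.

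Regulators of the 4 kinases were read from a list of 10 genes, of which 9 were measured. With limma, 0 passed over all genes, 2 of 9 had an unadjusted p under 0.05 in opposite directions (8.51% of all genes), and the arrays of 3 were higher (20.5% of all genes) and of 3 lower (18.9%) without overlap. DNAJC3, a chaperone also known as P58IPK that inhibits EIF2AK2 and EIF2AK3, was at 9.96 and 9.96 after GSK621 alone and at 9.68 and 9.55 after rapamycin and GSK621. This is a log2 difference of −0.35 ± 0.10 (SE; limma adjusted p = 0.542). DELE1, the mitochondrial messenger that activates EIF2AK1, was at 7.30 and 7.40 against 7.61 and 7.63, a difference of 0.27 ± 0.10 (limma adjusted p = 0.576). The adaptor NCK1 had −0.24 ± 0.10, also with lower values on both arrays after rapamycin.

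Factors that bind the initiator tRNA complex or the start codon were higher in 7 of 10 genes, and the median log2 difference was 0.09. That median came to 0.040 without replicate 2 of rapamycin then GSK621 and to 0.046 among genes above the median level. With limma 0 of 10 passed over all genes and 1 had an unadjusted p under 0.05, against 8.51% of all genes. That was EIF2D, a factor that can place tRNA on the ribosome without eIF2, with log2 levels of 9.55 and 9.76 after GSK621 alone and 9.88 and 10.27 after rapamycin and GSK621. Its log2 difference was 0.43 ± 0.16 (SE; limma adjusted p = 0.584). It came to 0.23 when replicate 2 of rapamycin then GSK621 was left out. EIF2A, which despite its name is no subunit of eIF2, had 0.22 ± 0.10, and BZW1, a mimic of the factor eIF5, had −0.20 ± 0.11, with −0.30 and −0.10 when replicate 1 or replicate 2 of rapamycin then GSK621 was left out.

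Genes downstream of phosphorylated eIF2 were lower in 23 of 25 cases, with a median log2 difference of −0.22 against 0.00 over all genes. With limma 0 of 25 passed over all genes, 10 had an unadjusted p under 0.05, all lower (4.2% of all genes), and 18 had lower arrays without overlap (18.9% of all genes) and 0 higher (20.5%). GDF15, a secreted stress hormone, had the smallest p, with log2 levels of 9.18 and 9.07 against 8.03 and 8.07. The transcription factors ATF5 (−0.61 ± 0.10) and ATF3 (−0.75 ± 0.14) followed. ATF4 itself was at 9.53 and 9.69 after GSK621 alone and at 9.52 and 9.69 after rapamycin and GSK621, a difference of −0.00 ± 0.11. Its sign turned under quantile normalization and when arrays were centred.

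The other arms of the unfolded protein response, which share their trigger with EIF2AK3, were lower in 10 of 12 genes with a median log2 difference of −0.43. With limma 0 of 12 passed over all genes and 8 had an unadjusted p under 0.05, all lower (4.2% of all genes). The arrays of 9 were lower (18.9% of all genes) and of 1 higher (20.5%) without overlap. The higher gene was that of the transcription factor XBP1, at 11.48 and 11.56 against 11.63 and 11.73, a difference of 0.15 ± 0.10 (SE). ERN1, the sensor kinase and nuclease IRE1, was at 7.36 and 7.53 after GSK621 alone and at 6.65 and 6.70 after rapamycin and GSK621. The chaperone HSPA5, which holds EIF2AK3 inactive in unstressed cells, had −0.48 ± 0.10, HYOU1 had −0.52 ± 0.10 and EDEM1, a factor of misfolded protein disposal, had −0.47 ± 0.10. The third sensor, ATF6, had overlapping arrays at 9.24 and 9.32 against 9.23 and 9.25. The same direction of both these lists was known from earlier work on these arrays when they were drawn up, so it adds no independent support.

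**Figure D4:**
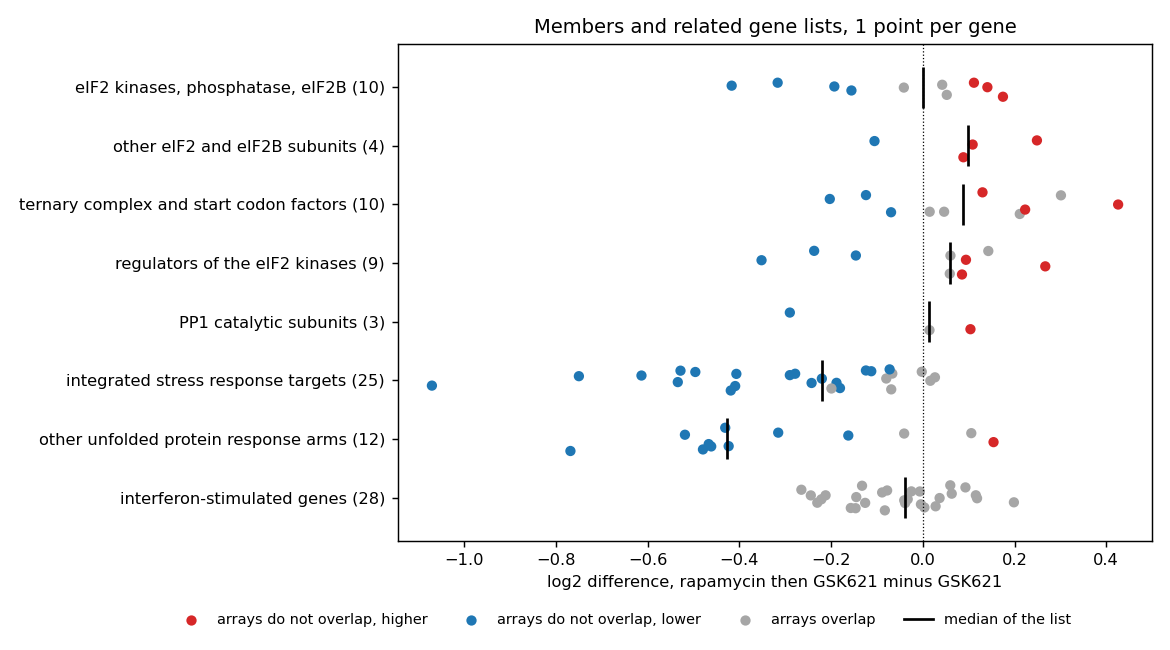
Log2 difference, rapamycin then GSK621 minus GSK621, of each gene (points) of the 10 genes of the eIF2 cycle and of 7 related lists, with the number measured in brackets and a line at the median. Genes downstream of eIF2 and of the other unfolded protein response arms lie mostly left of 0, and the eIF2 cycle genes lie on both sides.

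The genes closest to PPP1R15A and EIF2AK3 over the 4 arrays were ranked by the root-mean-square difference of log2 values after centring each gene on its own mean. For PPP1R15A these were the uncharacterized non-coding gene LOC102724736 (0.0132), RIMKLB (0.0242), SEMG2 (0.0263) and the non-coding gene LOC101927896 (0.0304), all below the median level of all genes. For EIF2AK3 they were BORCS7 (0.00714), the acyl-CoA synthetase gene ACSL4 (0.00841), the prostaglandin synthase gene PTGDS (0.00911) and EGLN1 (0.00946), a prolyl hydroxylase that marks HIF1 for degradation. EGLN1 was at 10.00 and 9.92 after GSK621 alone and at 9.63 and 9.64 after rapamycin and GSK621. With 4 arrays and 24241 genes many patterns come close, and 249 genes lay within 0.05 of EIF2AK3 and 10 within 0.05 of PPP1R15A.

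Leaving out 1 array at a time kept the direction of EIF2AK1 (−0.19 to −0.12), EIF2AK3 (−0.36 to −0.27), EIF2AK4 (0.06 to 0.16), EIF2S1 (−0.26 to −0.13), PPP1R15A, EIF2B3 (0.11 to 0.17) and EIF2B4 (0.13 to 0.22). These 7 are the genes whose arrays did not overlap between groups, so the kept direction follows from that. With 1 array left out, the unadjusted p of EIF2AK3 ran from 0.0356 to 0.0790 and that of PPP1R15A from 0.0214 to 0.155 (limma).

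**Figure D5:**
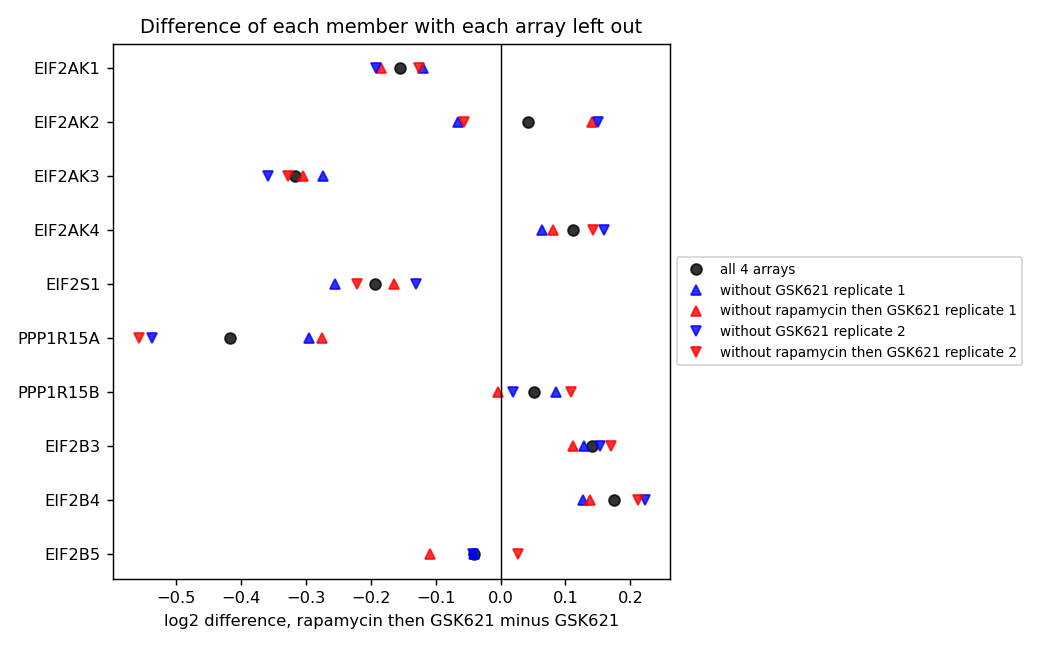
Log2 difference of each of the 10 genes with all 4 arrays (black) and with each array left out in turn (blue, an array of GSK621 alone; red, an array of rapamycin then GSK621; upward triangle, replicate 1; downward triangle, replicate 2). The values of EIF2AK2, PPP1R15B and EIF2B5 fall on both sides of 0, and those of PPP1R15A spread most, from −0.56 to −0.28.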

How the data were processed

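The authors deposited 1 normalized value per probe set and array, taken here as log2 expression because values spanned 1.84 to 13.28 with like quantiles on all arrays. R 2.15.3 and Partek were used, per the submitters' processing notes. How background, normalization and probe set summary were handled is not given in the sources used here. Of 25582 probe sets, 24244 carried 1 symbol in the platform annotation, 0 several and 1338 none. Where a gene had more than 1 probe set (3 genes), the one with the highest mean was kept. Groups and replicate numbers came from the titles.

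Rapamycin then GSK621 minus GSK621 was fitted over 24241 genes in limma 3.58.1 (lmFit, then eBayes) under R 4.3.3. The tests were two-sided, p-values were adjusted after Benjamini and Hochberg, no filter was used, and there were 2 residual and 3.39 prior degrees of freedom. The median SE of a log2 difference was 0.11, and the number of arrays limits the precision. On simulated arrays of this comparison with 24241 genes, a log2 change of 1 was called in 60% of 100 genes and a change of 2 in 95% of 100, with 15 calls among the others.

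The 10 genes and the lists were chosen with earlier results of these data known. Named beside them are all genes of the 2 shortest lists, the 3 genes of smallest p in each other list with ATF4 and HSPA5, and the 4 genes closest to each of the 2 genes of widest range. ATF6, XBP1, DDIT4, EIF2AK3-DT, EIF2AK3-AS1 and the myeloid markers named fall outside that rule and were chosen after their values were seen. Promoter windows were taken from RefSeq (GRCh38.p14), which had one for 9 of the 10 genes, and the motifs were chosen after the values were seen. Alternatives were a block for the replicate number, centred or quantile-normalized arrays, leaving out dim genes, a trended robust or an unmoderated variance, the mean of probe sets and leaving out each array.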

Additional observations from a re-analysis of the deposited data

How the results depend on the processing

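The count of the 10 genes past an adjusted p under 0.05 was 0 in all 11 alternative settings. The count at an unadjusted p under 0.05 was 2, came to 4 with a variance trend and robust estimation (EIF2AK1, EIF2AK3, EIF2S1 and PPP1R15A), and ran from 0 to 2 with 1 array left out. Without moderation, 1960 of all genes passed and the count was also 2, but the genes were EIF2AK3, lower, and EIF2B3, higher. PPP1R15A was not among them, so its place in the count depended on the moderated variance. Over all genes, 0 were called, against 3 among genes above the median level, 74 with a trend and robust estimation and 1 without moderation. In the related lists 0 of 91 genes were called, and 7 with a trend and robust estimation, namely GDF15, ATF5, DDIT4, ERN1, HSPA5, HYOU1 and EDEM1. Of 110 values for the 10 genes under other settings, 106 kept their direction and 4 turned. The block, leaving out dim genes, the variance settings and the mean of probe sets cannot change these differences. For the 7 genes without overlap between groups, leaving out 1 array cannot turn the direction either. Many of the 106 were thus fixed in advance. All 4 turns came with 1 array left out, in EIF2AK2, PPP1R15B and EIF2B5. With 1 array left out, EIF2AK2 ran from −0.066 (−0.057 without replicate 2 of rapamycin then GSK621) to 0.15, PPP1R15B from −0.0035 to 0.11, EIF2B5 from −0.11 to 0.027, PPP1CC from −0.030 to 0.059 and ATF4 from −0.085 to 0.080 (0.078 without replicate 2 of GSK621). ATF4 also turned to 0.019 with quantile normalization and to 0.00203 with centring. With 1 array left out the groups hold unequal replicate numbers, so a difference between replicates enters the value. Replicate 2 minus replicate 1 was 0.21 for EIF2AK2 and 0.16 for ATF4. The cause of the turns was not tested. The replicate number as a block left the counts at 0 and 2 of the 10 genes and gave 2168 genes at an unadjusted p under 0.05 in place of 2064. Deviations of same-numbered arrays correlated at 0.0923 over genes, so the numbers were not taken to pair the arrays. That does not exclude a shared replicate shift in some genes, such as EIF2AK2 and the 28 interferon-stimulated genes. For these the SEs and intervals given include that shift. With the block, the unadjusted p (limma) was 0.077 for IFIT2, 0.094 for OASL, 0.074 for HERC6 and 0.684 for EIF2AK2. Without it, these were 0.168, 0.214, 0.224 and 0.754. No signal over background was used, and 2 arrays per group leave 95% intervals of at least 0.23 on either side of each difference.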

Other observations

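A non-coding gene that RefSeq annotates beside EIF2AK3 as its divergent transcript, EIF2AK3-DT, differed in the opposite direction to EIF2AK3, although neither passed the test. Its log2 level was 4.24 and 4.34 after GSK621 alone and 4.59 and 4.80 after rapamycin and GSK621, without overlap. The log2 difference was 0.40 ± 0.12 (SE; limma adjusted p = 0.543). It lay at percentile 34.0 of mean level, and whether it stood above background is not known. A further neighbour, the antisense gene EIF2AK3-AS1, had −0.09 ± 0.11 (SE, log2) and overlapping arrays, at percentile 19.6 of mean level.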
